A study of Mus musculus with 9 samples.

Results

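Genes of the fibroblast growth factor (FGF) system were followed in mouse embryonic fibroblasts (MEFs) that carried a CRX homeobox gene from another mammal. They were the receptor genes Fgfr1, Fgfr2, Fgfr3 and Fgfrl1 and the ligand genes Fgf2, Fgf7, Fgf10, Fgf18 and Fgf21, chosen by name as FGF receptors and mesenchymal ligands with earlier results of these data known, and they were 9 of the 22068 genes listed. RNA-seq read counts were made for 3 conditions with 3 libraries each, 9 in all. The cells were commercial primary MEFs of the C57Bl/6 strain at passage 2, a cell type that is as a rule a mixed culture from embryonic tissue. All of them had been electroporated with a plasmid that carries a puromycin-resistance gene and were kept in puromycin for 5 days. Control cells received the plasmid with no homeobox gene, eutherian CRX cells received V5-tagged human CRX, and metatherian CRX cells received V5-tagged opossum CRX. The sample labels place a recovery of 48 hours after selection, whereas the study's methods place it before selection and describe an overnight culture afterwards. RNA was taken in triplicate for each condition and nothing states that the triplicates were separate cultures, so p-values measure the spread between these libraries, which may be technical.

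FGF ligands bind receptor tyrosine kinases at the cell surface together with heparan sulfate chains, and the activated receptors signal largely through the RAS and ERK cascade. Fgf7 and Fgf10 are made by mesenchymal cells and act mainly on the epithelial splice form of Fgfr2, while mesenchymal cells themselves carry the other splice form, and a count per gene does not separate the splice forms. Fgfrl1 encodes a receptor-like protein that lacks the kinase domain, and Fgf21 encodes a hormone-like FGF that needs a Klotho protein as co-receptor.

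CRX is a transcription factor whose homeodomain is known to bind the core TAATCC, so the promoters of the genes were searched for it. RefSeq gives promoter windows on the build GRCm38.p6, from 250 bases before to 50 bases after a transcription start, for 8 of the 9 genes (9 windows, 2 of them for Fgfr3). Fgfr1 was not in the table. The core TAATCC or its reverse complement GGATTA was in 0 of the 9 windows and in 7.06% of all 32851 windows. The GC box GGGCGG or its reverse complement CCGCCC was in 7 of the 9 and in 35.7% of all. The windows of the 4 genes on which the results turn are printed with GC box matches in capitals, to set the window of Fgfr2 beside the others. They lie at chr7:130266759-130267058 on the minus strand (Fgfr2), chr5:108693979-108694278 on the plus strand (Fgfrl1), chr3:37348403-37348702 on the plus strand (Fgf2) and chr13:118714449-118714748 on the plus strand (Fgf10).
Fgfr2: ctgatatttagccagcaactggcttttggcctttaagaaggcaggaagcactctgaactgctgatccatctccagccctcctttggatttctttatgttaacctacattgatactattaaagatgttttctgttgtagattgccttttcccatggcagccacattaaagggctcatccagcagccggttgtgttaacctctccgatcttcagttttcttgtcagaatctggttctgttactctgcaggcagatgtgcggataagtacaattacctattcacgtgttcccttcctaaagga
Fgfrl1: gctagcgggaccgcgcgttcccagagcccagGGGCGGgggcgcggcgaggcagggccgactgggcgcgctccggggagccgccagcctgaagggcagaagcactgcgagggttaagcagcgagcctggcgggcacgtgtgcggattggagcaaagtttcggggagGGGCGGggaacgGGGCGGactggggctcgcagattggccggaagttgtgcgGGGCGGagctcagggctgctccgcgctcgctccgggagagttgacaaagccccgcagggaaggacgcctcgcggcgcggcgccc
Fgf2: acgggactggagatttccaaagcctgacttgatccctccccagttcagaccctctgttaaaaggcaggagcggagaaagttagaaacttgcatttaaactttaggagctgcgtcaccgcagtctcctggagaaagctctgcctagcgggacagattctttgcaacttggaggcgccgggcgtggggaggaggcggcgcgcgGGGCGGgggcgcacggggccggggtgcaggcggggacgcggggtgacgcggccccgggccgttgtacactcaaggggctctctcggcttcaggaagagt
Fgf10: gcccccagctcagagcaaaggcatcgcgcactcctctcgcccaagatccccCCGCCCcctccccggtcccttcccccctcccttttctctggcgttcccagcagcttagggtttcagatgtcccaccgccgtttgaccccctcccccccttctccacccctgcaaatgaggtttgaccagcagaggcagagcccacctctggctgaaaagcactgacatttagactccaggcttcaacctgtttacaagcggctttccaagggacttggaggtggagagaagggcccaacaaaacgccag
The Fgfr2 window held 4 CpG dinucleotides, no GC box and 43.7% G and C bases. The Fgfrl1 window held 37 CpG, 4 GC box matches and 73.7% G and C. Fgf2 and Fgf10 had 24 and 10 CpG and 1 GC box match each, against a median of 7 CpG over all windows. The windows of Fgfrl1 and Fgf10 are set on the first base of the deposited gene models. Those of Fgfr2 and Fgf2 are not, since the deposited models begin at chr7:130266944 and chr3:37348469. A match is a run of letters and not a binding site, and the lack of a match says nothing about CRX beyond these 300 bases.

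Library totals ran from 54145701 to 94699657 counts, and 10100 genes were tested. Mouse Crx was at 0 counts in the 3 control libraries and at 627, 995 and 313 counts in the eutherian CRX libraries, where human CRX reads can align to it. In the metatherian CRX libraries it had 4, 0 and 0 counts, so it does not check those labels. Eutherian CRX replicate 3 stood furthest from its own replicates, so fits without it are given beside those from all 9 libraries. The SD of its log2 difference from its own replicates over genes was 0.851 and 0.886, whereas replicates 1 and 2 differed with an SD of 0.148. Replicate 3 of the other conditions also stood apart, by less, with 0.551 and 0.444 in control (0.243 between 1 and 2) and 0.553 and 0.573 in metatherian CRX (0.254 between 1 and 2). The fibroblast list (12 genes, all tested) was expressed at summed levels of 9118 to 10537 FPKM (fragments per exon length and library size) in control, 4460 to 8710 in eutherian CRX and 4896 to 8773 in metatherian CRX libraries, and its highest gene was Vim. In metatherian CRX cells its median log2 fold change was -1.02, and 9 of the 12 had an unadjusted p under 0.05 (8 of them lower), against 19.5% of all genes. There edgeR called 0 of the 12 from all 9 libraries and 7 (6 lower) without eutherian CRX replicate 3, against 8.79% of all genes, while DESeq2 called 5 (9.94% of all) and limma voom 11 (46.2% of all). The epithelial list was low, with a mean FPKM under 1 for 10 of its 12 genes, and Cdh1 averaged 0.0672 FPKM. Skeletal muscle was lower still, with all 6 genes under 1 FPKM and Myf5 at 0 in every library. In such bulk samples, fewer cells of a type and less RNA per cell cannot be told apart.

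**Figure D1:**
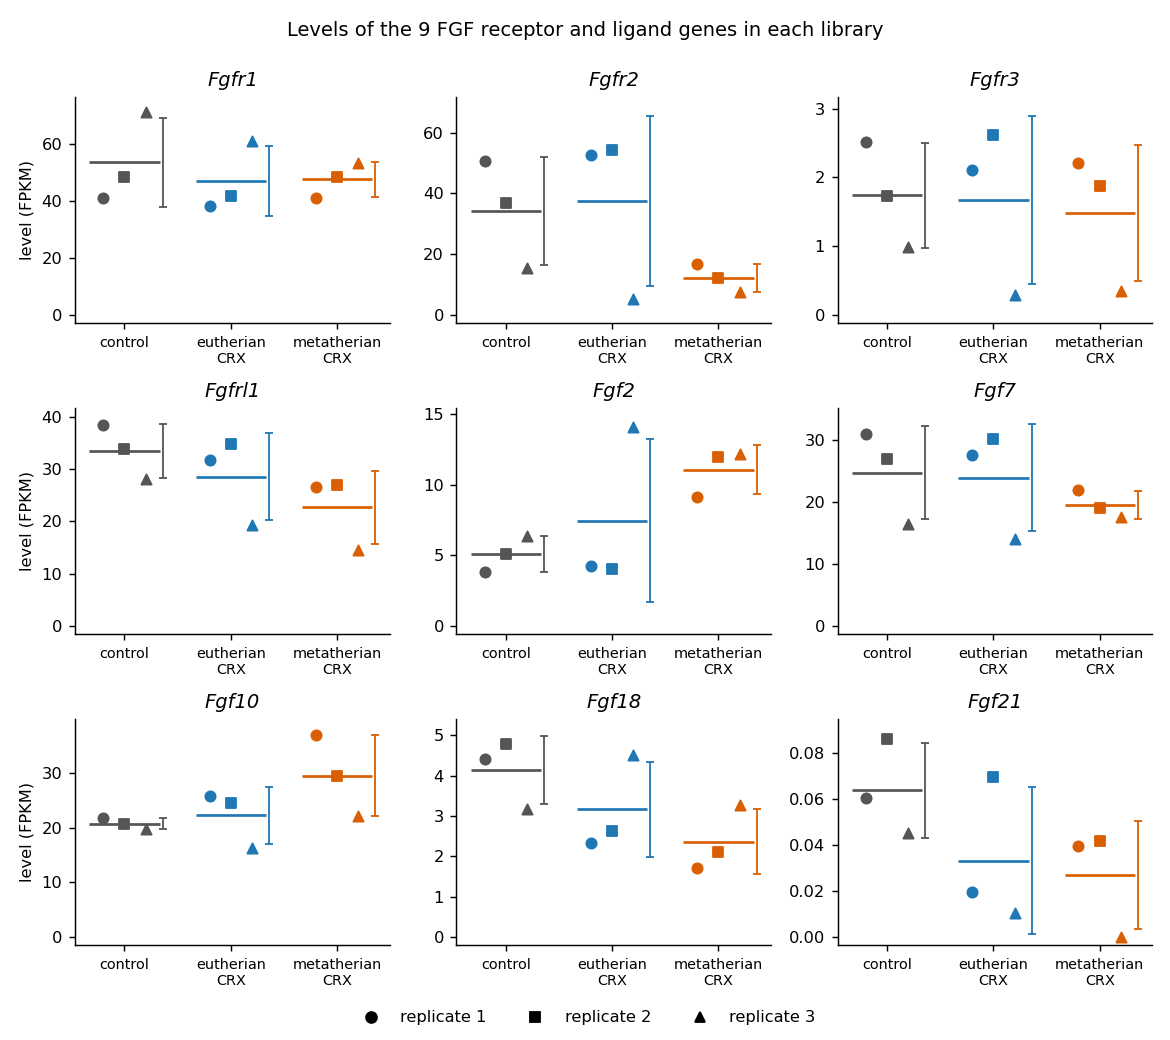
Level in FPKM (vertical axis, linear) of each gene in the 3 libraries of each condition, with replicate numbers as symbols, a horizontal line at the mean and a bar of 1 SD to each side of it. In the Fgfr2 panel the library numbered 3 is the lowest of its condition each time, at 15.3, 5.06 and 7.59 FPKM, and in the Fgf2 panel the 3 metatherian CRX libraries, at 9.10 to 12.2 FPKM, lie above the 3 control libraries.

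Fgfr1 is known as the main FGF receptor of mesenchymal cells (chr8:25513623-25575718, plus strand, mm10). Its level was 41.2, 48.2 and 71.1 FPKM in control, 38.3, 41.8 and 61.1 in eutherian CRX and 40.8, 48.5 and 53.3 in metatherian CRX libraries. The conditions overlapped, and replicate 3 was the highest library of each. The metatherian CRX level differed from control by a log2 fold change of -0.14 (95% interval -0.43 to 0.15), and the eutherian CRX level by -0.18 (-0.46 to 0.11). Neither was called.

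Fgfr2 (chr7:130162451-130266944, minus strand, mm10) spread more than any other of the 7 genes tested. It stood at 50.6, 36.7 and 15.3 FPKM in control, at 52.7, 54.4 and 5.06 in eutherian CRX and at 16.8, 12.0 and 7.59 in metatherian CRX libraries. Replicates 1 and 2 of control and eutherian CRX were all high, all 3 metatherian CRX libraries were low, and the libraries numbered 3 were low in every condition. The lowest and the highest library, 10.8-fold apart, were both eutherian CRX libraries. The SD of log2 level over the 9 libraries was 1.29, above that of 98.4% of the genes tested. In metatherian CRX cells the log2 fold change from control was -1.35 (SE 0.48, 2.56-fold), lower within each of the 3 replicate numbers, with an edgeR adjusted p of 0.20. Without eutherian CRX replicate 3, which is not in this contrast but adds to the shared spread, it was -1.40 (SE 0.18) with an edgeR adjusted p of 0.011, and the difference of metatherian from eutherian CRX was -1.82 (SE 0.21, adjusted p 0.017 in the same edgeR fit). From all 9 libraries that difference was -1.20 (SE 0.50, edgeR adjusted p 0.43), and metatherian CRX was lower in 2 of the 3 replicate numbers and higher in number 3. For eutherian CRX against control the value was -0.16 (95% interval -1.30 to 0.99) with that library and 0.42 without it, and neither was called.

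Fgfr3, a receptor known best from cartilage, had a mean under 2 FPKM in every condition and did not pass the filter on low levels. Its level was 2.51, 1.73 and 0.982 FPKM in control, 2.11, 2.61 and 0.288 in eutherian CRX and 2.21, 1.88 and 0.353 in metatherian CRX libraries. Replicate 3 was again the lowest of each condition, and the conditions overlapped. In an edgeR fit without the FPKM minimum its log2 fold changes from control were -0.46 (SE 0.40, adjusted p 0.80) and -0.56 (SE 0.40, adjusted p 0.47).

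Fgfrl1, the receptor-like gene without a kinase (chr5:108694229-108706950, plus strand, mm10), was measured at 38.4, 33.8 and 28.1 FPKM in control, 31.7, 34.7 and 19.2 in eutherian CRX and 26.5, 26.9 and 14.6 in metatherian CRX libraries. All 3 metatherian CRX libraries lay below all 3 control libraries. The log2 fold change was -0.61 (SE 0.14, edgeR adjusted p 0.10), and -0.60 (SE 0.13, edgeR adjusted p 0.046) without eutherian CRX replicate 3. For eutherian CRX it was -0.27 (95% interval -0.59 to 0.06).

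**Figure D2:**
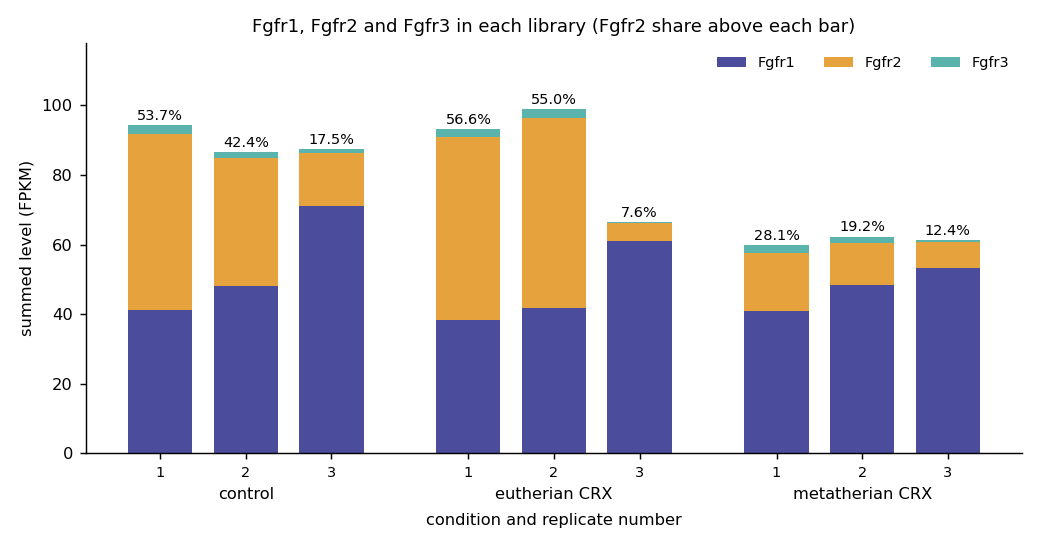
Summed level in FPKM (vertical axis, from 0) of Fgfr1, Fgfr2 and Fgfr3 in each library, with the share of Fgfr2 above each bar. Fgfr2 makes up 53.7% of the sum in control replicate 1 and 7.61% in eutherian CRX replicate 3, and the metatherian CRX bars, at 59.8 to 62.3 FPKM, are lower than those of control.

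Together the kinase receptors Fgfr1, Fgfr2 and Fgfr3 summed to 94.3, 86.6 and 87.4 FPKM in control, 93.1, 98.8 and 66.5 in eutherian CRX and 59.8, 62.3 and 61.2 in metatherian CRX libraries. The share of Fgfr2 in that sum was 53.7%, 42.4% and 17.5% in control, 56.6%, 55.0% and 7.61% in eutherian CRX and 28.1%, 19.2% and 12.4% in metatherian CRX libraries. Fgfr2 thus passed Fgfr1 in 3 libraries, control replicate 1 and eutherian CRX replicates 1 and 2. The ratio of Fgfr2 to Fgfr1 within a library ran from 0.0827 to 1.38. In metatherian CRX it was below control within each of the 3 replicate numbers, by log2 differences of -1.63 to -0.60. An exact permutation test over the libraries, which does not use the numbers, gave p = 0.3 (two-sided) for the mean log2 difference of -1.27, where 3 against 3 libraries cannot go below 0.1.

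Among the ligands, Fgf2, which lacks a classical secretion signal and acts on fibroblasts themselves (chr3:37348469-37405538, plus strand, mm10), was at 3.85, 5.09 and 6.41 FPKM in control, 4.24, 4.04 and 14.1 in eutherian CRX and 9.10, 12.0 and 12.2 in metatherian CRX libraries. The metatherian CRX libraries were all above control, and so was eutherian CRX replicate 3 alone of its condition. The log2 fold change in metatherian CRX cells was 1.15 (SE 0.33, 2.23-fold, edgeR adjusted p 0.14). Without eutherian CRX replicate 3 it was 1.14 (SE 0.14, edgeR adjusted p 0.0096), and Fgf2 was then also higher in metatherian than in eutherian CRX cells by 1.28 (SE 0.16, edgeR adjusted p 0.021). From all 9 libraries that difference was 0.78 (SE 0.33, edgeR adjusted p 0.43), higher in 2 of the 3 replicate numbers and lower in number 3.

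The Fgf2 value carries a limit of its own. The last deposited Fgf2 exon shares 557 bases with an exon of Nudt6, a gene on the opposite strand, and GENCODE release M21 on the same build extends that Fgf2 exon from 927 to 5497 bases, chr3:37404612-37410108, which takes in 2434 of the 3590 deposited Nudt6 exon bases on the chromosome. Nudt6 was counted at 2948, 5832 and 5460 reads in control, 5396, 3907 and 14049 in eutherian CRX and 11514, 11357 and 11911 in metatherian CRX libraries. The ratio of Fgf2 to Nudt6 counts stayed between 0.217 and 0.282 in all 9 libraries, and Nudt6 had a log2 fold change of 1.27 in metatherian CRX cells (SE 0.28, edgeR adjusted p 0.10). The strand setting of the counting is not given in the sources used here, so reads from the 2 genes cannot be told apart. The deposited Fgf2 model also holds 5 exon intervals outside chromosome 3, and its 3436 exon bases, of which 2120 are on chromosome 3, set the FPKM.

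**Figure D3:**
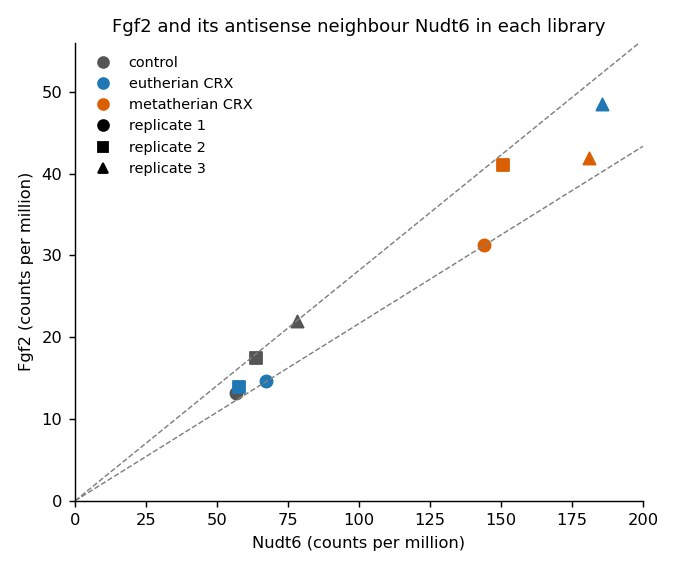
Fgf2 against Nudt6 in CPM (counts scaled by library size) for the 9 libraries (linear axes from 0, condition by colour and replicate number by symbol), with dashed lines at the lowest and highest ratio of Fgf2 to Nudt6 counts, 0.217 and 0.282. All 9 libraries lie between these lines, with the 3 metatherian CRX libraries and eutherian CRX replicate 3 at the upper right.

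Fgf7 and Fgf10 are the paracrine ligands that mesenchyme sends to epithelium. Fgf7 (chr2:126001108-126091185, plus strand, mm10) was at 30.8, 26.9 and 16.4 FPKM in control, 27.5, 30.1 and 14.0 in eutherian CRX and 21.9, 19.0 and 17.5 in metatherian CRX libraries. The conditions overlapped, since replicate 3 was low in control and eutherian CRX cells. Its log2 fold changes from control were -0.07 (95% interval -0.50 to 0.37) for eutherian and -0.29 (-0.72 to 0.15) for metatherian CRX.

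Fgf10 (chr13:118714699-118792573, plus strand, mm10) was at 21.7, 20.6 and 19.7 FPKM in control, 25.9, 24.6 and 16.3 in eutherian CRX and 37.0, 29.5 and 22.1 in metatherian CRX libraries. The lowest metatherian CRX library was just above the highest control library. The log2 fold change was 0.48 (SE 0.14, 1.39-fold, edgeR adjusted p 0.15), and 0.49 (SE 0.13, edgeR adjusted p 0.066) without eutherian CRX replicate 3. The ratio of Fgf10 to Fgf7 within a library was 0.704, 0.767 and 1.20 in control, 0.940, 0.816 and 1.17 in eutherian CRX and 1.69, 1.55 and 1.26 in metatherian CRX libraries. The metatherian CRX libraries had the 3 highest ratios of the 9. Within replicate numbers they were above control by log2 differences of 0.070 to 1.26. The mean log2 difference from control was 0.78, and the exact permutation p of 0.1 (two-sided) is the smallest that this design allows.

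Fgf18, a ligand that acts on bone and cartilage, had 219 to 698 counts per library (chr11:33116970-33147400, minus strand, mm10). It was at 4.42, 4.79 and 3.18 FPKM in control, 2.33, 2.63 and 4.52 in eutherian CRX and 1.72, 2.10 and 3.27 in metatherian CRX libraries. Replicates 1 and 2 of both CRX conditions lay below all control libraries, while replicate 3 of each did not. The log2 fold change was -0.47 (SE 0.32, edgeR adjusted p 0.78) for eutherian and -0.89 (SE 0.32, edgeR adjusted p 0.20) for metatherian CRX. Fgf21 was hardly counted, with 4, 10 and 4 reads in control, 2, 6 and 1 in eutherian CRX and 4, 4 and 0 in metatherian CRX libraries, and it was not tested. A count of 0 allows up to 3 reads, and 83 bases of an Fgf21 exon are shared with Fut1.

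By mean level per length, Fgfr1 ranked 1 of the 9 genes in all 3 conditions. Its lead over Fgfr2 was not beyond their spread in control (53.5 ± 15.7 FPKM) or in eutherian CRX cells (47.1 ± 12.3 against 37.4 ± 28.0). Fgfr2 was above Fgfr1 in control replicate 1 and in eutherian CRX replicates 1 and 2. Control had Fgfr2 (34.2 ± 17.8 FPKM, SD, n = 3) and Fgfrl1 (33.4 ± 5.13) next, which do not differ beyond their spread, then Fgf7 (24.7 ± 7.46) and Fgf10 (20.7 ± 1.00), also within their spread. Fgf2 (5.12 ± 1.28) and Fgf18 (4.13 ± 0.843) followed, and Fgfr3 (1.74 ± 0.765) and Fgf21 (0.0638 ± 0.0207) came last. Eutherian CRX cells had the same order of means. In metatherian CRX cells Fgf10 (29.5 ± 7.44) ranked 2 and Fgfr2 (12.1 ± 4.60) ranked 5, beside Fgf2 at 11.1 ± 1.72.

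Over all 7 genes tested, the quasi-likelihood test of edgeR, its p-values adjusted by Benjamini-Hochberg across the 10100 genes, called 0 in each comparison. For eutherian CRX against control, 0.604% of all genes were called. None of the 7 had an unadjusted p under 0.05, against 8.56% of all genes, and none had conditions that did not overlap, against 14.0%. DESeq2 also called 0, where it called 3.30% of all genes, and limma voom with library weights called Fgf18 alone (log2 fold change -0.78), where it called 16.8% of all genes.

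For metatherian CRX against control, 0.0297% of all genes were called. Here 5 of the 7 had an unadjusted p under 0.05, Fgf2 and Fgf10 higher and Fgfr2, Fgfrl1 and Fgf18 lower, against 19.5% of all genes. Fgf2, Fgf10 and Fgfrl1 had conditions that did not overlap, against 23.3% of all genes. DESeq2 called 4 (Fgfr2, Fgfrl1, Fgf2 and Fgf10), against 9.94% of all genes. Limma voom with library weights called 6, all but Fgfr1, in a fit that called 46.2% of all genes. The median log2 fold change of the 7 was -0.29, against -0.01 over all genes.

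Metatherian against eutherian CRX gave 0% of genes called. Fgfr2 and Fgfrl1 were lower and Fgf10 higher at an unadjusted p under 0.05, 3 of the 7 against 11.5% of all genes, and none of the 7 had conditions that did not overlap, against 11.5% of all genes. DESeq2 called 0, against 3.14% of all genes. Limma voom with library weights called 6, all but Fgfr1, in a fit that called 48.3% of all genes.

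Without eutherian CRX replicate 3 the counts moved. Metatherian CRX against control then called 3 of the 7, Fgf2 higher and Fgfr2 and Fgfrl1 lower, where 8.79% of all genes were called. The difference between the CRX conditions called 2, Fgf2 and Fgfr2, where 3.46% of all were called. The library left out is part of that comparison and had the lowest Fgfr2 (5.06 FPKM) and the highest Fgf2 (14.1 FPKM) of all libraries. Eutherian CRX against control still called 0, with 0% of all genes called.

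**Figure D4:**
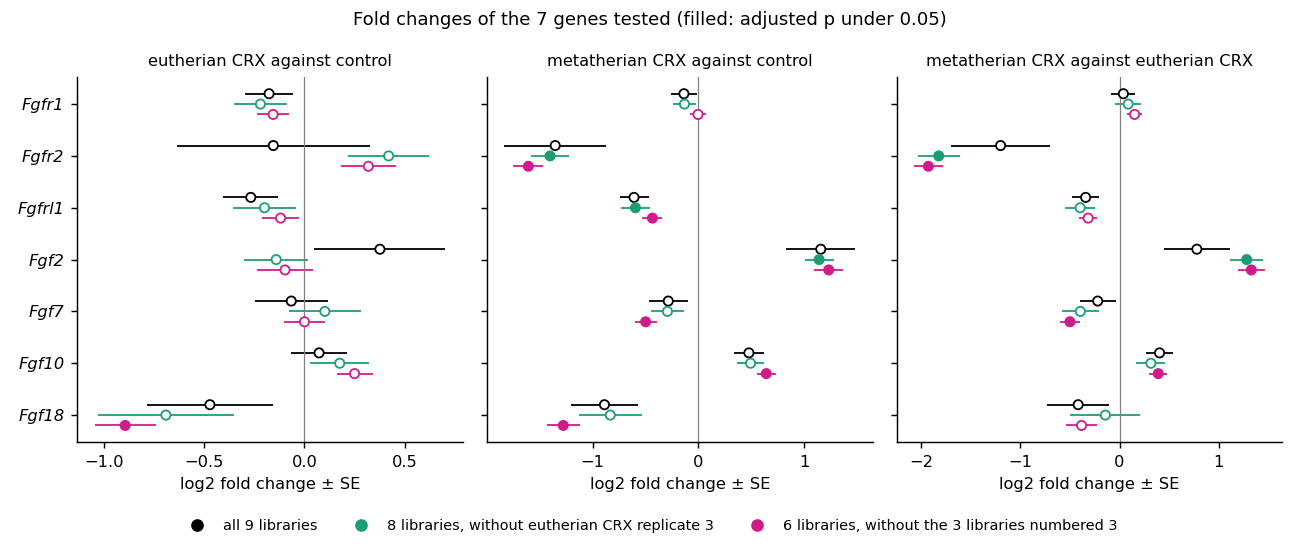
Log2 fold change with 1 standard error (horizontal axis) of the 7 genes tested in the 3 comparisons, from all 9 libraries (black), without eutherian CRX replicate 3 (green) and without the 3 libraries numbered 3 (magenta), with filled symbols at an edgeR adjusted p under 0.05. In the middle panel Fgfr2 lies at -1.35, -1.40 and -1.61 and Fgf2 at 1.15, 1.14 and 1.23, and only the fits that leave libraries out have filled symbols.

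The 3 libraries numbered 3 shared a pattern, which was compared with numbers 1 and 2 only after these values had been seen. Number 3 was the lowest library in 3 of 3 conditions for Fgfr2, Fgfr3, Fgfrl1, Fgf7 and Fgf10, and the highest in 3 of 3 for Fgfr1 and Fgf2. In the same edgeR fit Fgfr1 was higher by a log2 difference of 0.52 (SE 0.10, adjusted p 0.030) and Fgfrl1 lower by -0.67 (SE 0.12, adjusted p 0.024), 2 of the 7 against 8.79% of all genes. Fgfr2 differed by -1.79 (SE 0.46, edgeR adjusted p 0.060) and Fgf7 by -0.68 (SE 0.16, edgeR adjusted p 0.0505). With these 3 libraries left out, which keeps 2 libraries per condition, Fgf18 was called lower in eutherian CRX (1 of 7, against 3.43% of all genes). Metatherian CRX then gave 6 of 7, all but Fgfr1, against 22.3%, with Fgf7 at -0.50 and Fgf18 at -1.28, and the difference between the CRX conditions gave 4 of 7 against 22.6%. What sets these libraries apart is not stated in the labels. Summed levels of the fibroblast and adipocyte lists were lowest in number 3 in 3 of 3 conditions, and those of the endothelial list and the cell cycle list were highest in 3 of 3. Their part in the pattern of the FGF genes was not tested.

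Markers of other cells were followed in the same libraries. Smooth muscle and myofibroblast markers (7 genes, 5 tested) summed to 1108 to 1877 FPKM in control, 154 to 805 in eutherian CRX and 273 to 524 in metatherian CRX libraries, without overlap with control. Acta2, smooth muscle actin, averaged 681, 224 and 159 FPKM in that order, and 4 of the 5 had an unadjusted p under 0.05 in metatherian CRX cells, against 19.5% of all genes. There edgeR called 0, DESeq2 3 (9.94% of all genes) and limma voom 4 of the 5 (46.2% of all genes). Macrophage markers (9 genes, 3 tested) summed to 11.3 to 37.0, 6.16 to 19.9 and 3.74 to 9.97 FPKM, so the metatherian CRX sums lay wholly below control. Their highest gene, Lyz2, had a mean of 7.10 FPKM, and the leukocyte gene Ptprc had 0.0943. In metatherian CRX cells 2 of the 3 tested were lower at an unadjusted p under 0.05, against 19.5% of all genes. The median log2 fold change of the 3 was -1.93, and edgeR called 0 from all 9 libraries. Epithelial markers summed to 6.09 to 12.8, 6.73 to 22.6 and 13.9 to 19.4 FPKM, most of it Krt19 and Krt18. Of 17 cell cycle genes tested, edgeR called 6 lower in eutherian CRX cells, against 0.604% of all genes, while DESeq2 called 12 (3.30% of all) and limma voom 17 (16.8% of all). In metatherian CRX cells edgeR called 0 of the 17, DESeq2 12 (9.94% of all) and limma voom 15 (46.2% of all), and 15 had an unadjusted p under 0.05, all lower, against 19.5% of all genes. Endothelial markers (2 tested) had Flt1 called lower in eutherian CRX cells (log2 fold change -1.23, edgeR adjusted p 0.031). Without eutherian CRX replicate 3, that comparison called 0% of all genes, so the calls of Flt1 and of the 6 cell cycle genes were lost, as they were without the replicate block and with only the 6 libraries compared. Metatherian CRX against control without that library, the fit in which Fgf2, Fgfr2 and Fgfrl1 were called, called 9 of the 17 cell cycle genes lower, against 8.79% of all genes. The same fit called 4 of 5 smooth muscle markers lower, 1 of 2 endothelial and 1 of 2 neural markers lower and 1 of 2 epithelial markers higher. Of the chondrocyte and bone (3 tested), adipocyte (2) and neural markers (2), edgeR called 0 in each comparison from all 9 libraries. Of each list 0 or 1 had an unadjusted p under 0.05, while DESeq2 called 0 or 1 and limma voom 0 to 2. The part of these lists in the FGF gene values was not tested.

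The other FGF genes were at low levels. Of 17 further ligands and Fgfr4, 16 of the 18 had a mean under 1 FPKM, Fgf4 was at 0 counts in all 9 libraries, and Fgf13 was the single gene tested. Fgf13, an intracellular member of the family, was at 5.05, 4.16 and 3.27 FPKM in control, 3.62, 3.97 and 1.91 in eutherian CRX and 2.48, 1.83 and 2.27 in metatherian CRX libraries. Its log2 fold change was -0.42 (SE 0.24, edgeR adjusted p 0.73) in eutherian CRX cells, where limma voom called it (-0.47, adjusted p 0.0093). In metatherian CRX cells it was -0.89 (SE 0.25, edgeR adjusted p 0.13), and it was called without eutherian CRX replicate 3 (-0.91, edgeR adjusted p 0.039). The Klotho genes Kl and Klb, which encode co-receptors of hormone-like FGFs, had at most 6 and 16 counts in a library.

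Of the genes that help ligand and receptor meet, edgeR called 0 from all 9 libraries. The co-receptor and binding protein list had 6 of 10 tested and a median log2 fold change of -0.08 in eutherian and 0.29 in metatherian CRX cells. For eutherian CRX, 3 of the 6 had an unadjusted p under 0.05 (8.56% of all genes), DESeq2 called 1 (3.30% of all) and limma voom 3 (16.8% of all). For metatherian CRX the counts were 3 (19.5% of all), 0 (9.94%) and 5 (46.2%). Flrt2, a membrane protein known to bind FGF receptors, was at 34.3, 37.4 and 58.4 FPKM in control, 25.5, 26.5 and 43.7 in eutherian CRX and 51.1, 47.1 and 63.5 in metatherian CRX libraries. It was lower than control within each replicate number in eutherian CRX and higher within each in metatherian CRX cells, and the difference between the CRX conditions was 0.79 (SE 0.12, edgeR adjusted p 0.24), and 0.87 (edgeR adjusted p 0.027) without eutherian CRX replicate 3. Against control, eutherian CRX was at -0.45 in edgeR (adjusted p 0.31) and was called by DESeq2 (-0.44, adjusted p 0.041) and limma voom (-0.49, adjusted p 0.0014). Metatherian CRX was at 0.35 in edgeR (adjusted p 0.20) and was called by limma voom (0.46, adjusted p 0.00047) and not by DESeq2 (0.35, adjusted p 0.079). Flrt3, its relative, had log2 fold changes of 0.62 and 0.49 in edgeR, neither called, and was called by limma voom in both CRX conditions (0.55 and 0.26, adjusted p 0.0053 and 0.040). Heparan sulfate proteoglycans and their enzymes (25 of 29 tested) had medians of -0.11 and -0.04, with 1 and 2 genes at an unadjusted p under 0.05 (8.56% and 19.5% of all genes), 0 and 2 called by DESeq2 (3.30% and 9.94% of all) and 5 and 12 by limma voom (16.8% and 46.2% of all). The glypican genes Gpc6 (-0.50 in eutherian CRX), Gpc2 (-0.70 in metatherian CRX) and Gpc3 (-0.94 in metatherian CRX) and the sulfotransferase gene Hs3st1 (0.64 in eutherian CRX) had the smallest unadjusted p of that list, and limma voom called all 4 of these. Gpc2 and Gpc3 were also called by DESeq2, and Gpc3 by edgeR without eutherian CRX replicate 3 (-0.94, adjusted p 0.022).

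In the adaptor and ERK cascade list (21 of 22 tested) edgeR also called 0 from all 9 libraries, with medians of 0.03 and 0.14. At an unadjusted p under 0.05 there were 1 gene in eutherian and 4 in metatherian CRX cells (8.56% and 19.5% of all genes). DESeq2 called 0 and 2 (3.30% and 9.94% of all), and limma voom 1 and 12 (16.8% and 46.2% of all). Without the 3 libraries numbered 3, edgeR called 7 of the 21 in metatherian CRX cells, against 22.3% of all genes. Among its smallest unadjusted p values were those of Rps6ka1 (log2 fold change 0.44) in eutherian CRX and of Nras (0.39) and Rps6ka3 (0.38) in metatherian CRX cells. Limma voom called all 3, and DESeq2 called Nras and Rps6ka3. The RAS gene Nras was also called by edgeR without eutherian CRX replicate 3 (0.39, adjusted p 0.037).

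**Figure D5:**
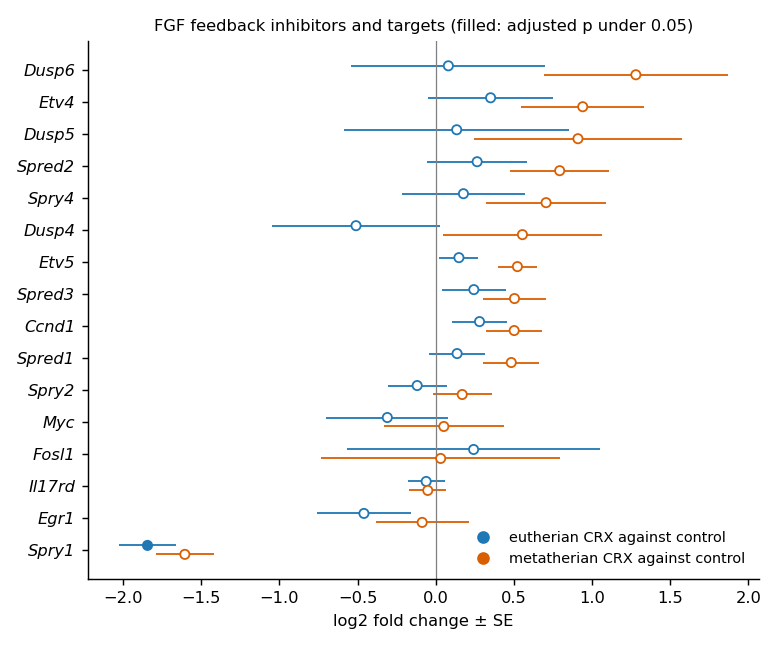
Log2 fold change with 1 standard error (horizontal axis) of the 16 tested FGF feedback inhibitors and target genes in eutherian CRX (blue) and metatherian CRX (orange) against control, from all 9 libraries, ordered by the metatherian value and filled at an edgeR adjusted p under 0.05. Spry1 lies at -1.84 and -1.61, and Dusp6 at 0.08 and 1.28.

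Feedback inhibitors and target genes are known to be induced by FGF signalling. Spry1, a Sprouty inhibitor of receptor tyrosine kinase signalling, was at 8.29, 10.8 and 18.3 FPKM in control, 2.91, 3.12 and 3.84 in eutherian CRX and 2.99, 3.04 and 6.37 in metatherian CRX libraries. Both CRX conditions lay wholly below control. It was the single pathway gene that edgeR called from all 9 libraries, with a log2 fold change of -1.84 in eutherian CRX cells (SE 0.19, 3.59-fold lower, edgeR adjusted p 0.027). DESeq2 and limma voom called it too. The edgeR call was lost without the replicate block (-1.92, adjusted p 0.20) and with only the 6 libraries compared (-1.85, adjusted p 0.066). With 1 library left out at a time, the edgeR call was kept without metatherian CRX replicate 2 or 3 and lost without each of the other 7 libraries, at adjusted p values up to 0.27. Without eutherian CRX replicate 3 it was -1.63 with an edgeR adjusted p of 0.061. In metatherian CRX cells the value was -1.61 (SE 0.18, edgeR adjusted p 0.069), and -1.60 (edgeR adjusted p 0.0047) without that library.

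Most other genes of the list had values above 0 in metatherian CRX cells. Over 16 genes tested the median log2 fold change was 0.50 (0.13 in eutherian CRX). Without eutherian CRX replicate 3 it was 0.51, and the eutherian CRX median turned to -0.41. In eutherian CRX cells limma voom called 4 of the 16, all lower, against 16.8% of all genes. In metatherian CRX cells 6 genes above 0 and Spry1 below it reached an unadjusted p under 0.05, 7 of the 16 against 19.5% of all genes. Of the 16, edgeR called 0, DESeq2 2 (9.94% of all genes) and limma voom 11 (46.2% of all genes). Dusp6, a phosphatase that inactivates ERK, was at 6.89, 14.9 and 20.9 FPKM in control, 5.51, 5.14 and 62.0 in eutherian CRX and 20.97, 31.2 and 45.6 in metatherian CRX libraries. Eutherian CRX replicates 1 and 2 were thus the lowest of the 9 and replicate 3 of that condition the highest. Etv5, a transcription factor induced by FGF signalling, was at 8.11, 9.49 and 9.21 FPKM in control, 8.89, 8.84 and 12.2 in eutherian CRX and 12.2, 13.1 and 13.2 in metatherian CRX libraries, with a log2 fold change of 0.52 (SE 0.12, edgeR adjusted p 0.11). Ccnd1, cyclin D1, had a log2 fold change of 0.50 (SE 0.18, edgeR adjusted p 0.20).

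Without eutherian CRX replicate 3, edgeR called 5 of the 16 higher in metatherian CRX cells than in control and Spry1 lower, where 8.79% of all genes were called. The 5 were Dusp6 (1.25, edgeR adjusted p 0.022), Spred2 (0.79), Spry4 (0.74), Etv5 (0.53) and Ccnd1 (0.51). Against eutherian CRX cells 5 were called higher in that fit, where 3.46% of all genes were called, with Dusp6 at 2.21, Dusp4 and Dusp5 at 1.96 each, Spry4 at 1.17 and Spred2 at 1.02 and a list median of 0.84. From all 9 libraries edgeR called 0 of the 16 in that comparison, the median was 0.37, and the same 5 genes had values of 1.20, 1.06, 0.78, 0.53 and 0.53. Sprouty and Spred proteins both restrain the RAS and ERK cascade. These genes were also high in the eutherian CRX library that was left out, with Dusp4 at 52.1 and Spry4 at 18.5 FPKM there.

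To find genes outside the FGF system with a like pattern, log2 CPM was centred on each gene's own mean over the 9 libraries, so that patterns and not levels were compared. The 5 genes whose pattern was nearest to that of Fgfr2 were Lxn, Fat4, Fam46a, Tmtc2 and Agtr1a, with root mean square differences of 0.169, 0.173, 0.196, 0.204 and 0.249. Lxn, which encodes a carboxypeptidase inhibitor, was at 305, 277 and 102 FPKM in control, 375, 421 and 44.7 in eutherian CRX and 129, 105 and 52.2 in metatherian CRX libraries. Fat4, a large protocadherin gene, was at 73.6, 60.7 and 17.1, then 68.6, 67.3 and 6.34, then 23.7, 19.2 and 10.5 FPKM in the same order. The same distance from Fgfr2 was 0.847 for Fgf7, 0.869 for Fgfrl1 and 1.90 for Fgf2.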

How the data were processed

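Poly(A)-selected RNA of MEFs was sequenced in 9 libraries (3 control, 3 eutherian CRX, 3 metatherian CRX). The authors aligned paired reads to mm10 with STAR, per the study's methods, counted them per gene with featureCounts, as their processing notes also say, and deposited a single table of whole-number counts with exon coordinates and lengths. Columns were tied to conditions by the sample labels, and all 9 mapped. Nothing states whether counting used strand.

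Levels were computed as FPKM from the deposited counts, TMM-scaled library sizes and summed exon lengths. Genes that filterByExpr kept and whose mean FPKM passed 2 in any condition (10100 of 22068) were tested with edgeR 4.0.16 in R 4.3.3 (quasi-likelihood, TMM, all 9 libraries, replicate number as a block, because the study states that samples were prepared in pairs), with Benjamini-Hochberg adjustment and calls at an adjusted p under 0.05. Library sizes, filters, DESeq2 1.42.0, limma 3.58.1 voom with library weights, thinning, the block and left-out libraries were varied. The contrast of number 3 with 1 and 2 and the ratios without single libraries were added after seeing the data. Among the fits that leave libraries out, the one without eutherian CRX replicate 3 was singled out after that library's distance from its replicates was seen. The test was tested on simulated data for eutherian CRX against control. There 71 of 100 genes changed by a log2 value of 1 and 97 of 100 changed by 2 were recovered among 10100. Of the unchanged genes, 9 were called. The simulated counts had no replicate effect and no library that stood apart, so these rates need not hold for the real libraries.

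The 9 genes and the gene lists were chosen with earlier results of these data known. Named in addition were Crx, the 5 genes nearest to Fgfr2, and the highest or first listed gene of some but not all marker lists. In each pathway list the genes called were named, or otherwise the 2 with the smallest unadjusted p against control. Nudt6, Flt1, Ptprc, Krt18, Myf5, and further pathway genes called without eutherian CRX replicate 3 were named after their values were seen. A gene that this rule names in the adaptor and ERK cascade list is not reported here. Promoter windows came from RefSeq (GRCm38.p6). Intervals and floors cover counting error only where they concern counts.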

Additional observations from a re-analysis of the deposited data

How the results depend on the processing

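The labels do not say whether the replicate numbers pair the libraries, and the values leave it unsettled. Deviations from the condition means correlated above 0.1 in 8 of 9 pairs of libraries with the same number (0.0036 to 0.75). They did so in 5 of 18 other pairs (up to 0.72), so likeness went in part with the number. Without the replicate block, 0 of the 7 genes and 0 pathway genes were called in each comparison (1 pathway gene, Spry1, with it), and Fgfr2 in eutherian CRX cells turned to 0.13. The cause of the changes given here was not tested.

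Of the 7 genes, eutherian CRX against control called 1 with limma voom and 0 to 1 with libraries left out. Metatherian CRX against control called 4 with DESeq2, 6 with voom, 2 with the 6 libraries compared and 0 to 6 with libraries left out. Metatherian against eutherian CRX called 6 with voom and 0 to 4 with libraries left out. Number 3 against 1 and 2 called 6 with DESeq2 (20.1% of all genes), 5 with voom (9.95%), 5 with filterByExpr alone or no filter (10.9% and 8.66%), 4 above 1 FPKM (10.1%), 6 at an adjusted p under 0.1 (16.9%) and 0 to 5 with libraries left out (0.752% to 21.5%). Of 69 pathway genes, eutherian CRX called 2 with DESeq2 (3.30% of all genes), 14 with voom (16.8%), 0 with 6 libraries (0%) and 0 to 3 with libraries left out (0% to 3.43%). Metatherian CRX called 7 (9.94%), 41 (46.2%), 4 (3.94%) and 0 to 27 (0% to 22.3%) in that order, and 2 (2.71%) at an adjusted p under 0.1. Between the CRX conditions 4 (3.14%), 44 (48.3%) and 0 to 30 (0% to 22.6%) were called with DESeq2, voom and libraries left out. The members' counts in the same fits stand against the same shares. Each of the 3 comparisons called 0 of all genes in 7 of the 9 fits that left out 1 library. The exceptions for metatherian CRX against control were eutherian CRX replicate 3, whose omission gave 9 pathway genes (8.79% of all genes), and metatherian CRX replicate 3, whose omission gave 5 (4.79%).

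Some values turned sign. In eutherian CRX cells Fgfr2 was 0.040 with voom, and with libraries left out Fgfr2 ran from -0.69 to 0.42, Fgf2 from -0.14 to 0.71, Fgf7 from -0.25 to 0.10, Fgf10 from -0.039 to 0.25 and Fgfr3 from -1.02 to 0.19. Fgfr3 in metatherian CRX cells ran from -0.95 to 0.053. The eutherian CRX median of the feedback inhibitors and target genes, 0.13 from all 9 libraries, turned to -0.41 without eutherian CRX replicate 3. It was -0.44 without the libraries numbered 3. Between the CRX conditions Fgfr1 ran from -0.043 to 0.16, Fgf7 from -0.50 to 0.012 and Fgfr3 from -0.42 to 0.34, with 0.048 in voom. In metatherian CRX against control, all 7 genes tested kept their sign under all 22 alternatives. Fgfr2 ran from -1.94 to -1.06, Fgfrl1 from -0.75 to -0.44, Fgf2 from 0.93 to 1.43 and Fgf10 from 0.33 to 0.65. Fgf18 ran from -1.29 to -0.63, Fgf7 from -0.54 to -0.12 and Fgfr1, which came near 0, from -0.21 to -0.0046. Fgf21, at 10 counts or fewer, is limited by depth.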
